A study of Rattus norvegicus with 6 samples.

Results

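The Dlk1-Dio3 imprinted region carries a long run of microRNA (miRNA) hairpins, and the members described here are those of the region outside the Rtl1-antisense group around miR-127 and outside the synaptic group of miR-134, miR-329, miR-381 and miR-485. Members were taken by name, as rows of the deposited table for 39 listed hairpins, any arm, with at least 1 value that was not blank. This gave 65 mature miRNAs from 37 hairpins, out of 1465 rows in the table, of which 694 were annotated and 771 were predicted by the authors. Of the members, 28 were 5p arms, 33 were 3p arms and 4 (miR-495, miR-665, miR-668 and miR-6331) carry no arm in their name. A further 5 rows of these hairpins were blank in every library, and miR-679 and miR-409b had no value to analyse.

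The samples were medial prefrontal cortex of 6 rats, 1 library each. The Control group was 3 rats that for 4 weeks were only handled and had their cages cleaned. The chronic mild stress (CMS) group was 3 rats given 8 kinds of stressor in random order for 4 weeks (foot shock, water and food deprivation, cold swimming, restraint, tail clipping, light cycle reversal and cage tilt), a rodent model of depression. The sources used here do not give strain, sex or age, and the molecule label of Control 3 reads polyA RNA where the other 5 read total RNA.

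Genes of the region are imprinted, so that its noncoding RNAs and miRNAs come from the maternal chromosome and its protein-coding genes from the paternal one. The miR-379 to miR-410 hairpins are processed from a long noncoding transcript (Mirg in rodents), and miR-770 lies in an intron of the maternal noncoding gene Meg3. These miRNAs are abundant in brain, where in cultured rat neurons the cluster is induced by activity and takes part in dendrite growth, and mice that lack it show altered anxiety-like and social behaviour. Each hairpin is cut into a duplex of a 5p and a 3p arm. Usually 1 arm is kept in the Argonaute silencing complex and the other is degraded. Since the seed, bases 2 to 8, largely sets which messenger RNAs are bound, the arms of a hairpin have different targets.

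All 65 members matched a mature sequence in the RefSeq miRNA table (build GRCr8), with lengths from 17 to 25 bases. The miR-154 seed is shown first because it is the reference of the seed grouping, with the 3 members whose seeds differ from it at 1 base. Capitals mark the seed, and sequences run 5′ to 3′.
miR-154-3p: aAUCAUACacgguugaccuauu
miR-369-3p: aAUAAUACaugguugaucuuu
miR-382-3p: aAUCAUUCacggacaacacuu
miR-487b-3p: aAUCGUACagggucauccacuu

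No other member had the seed of miR-154-3p. The members were diverse in seed: only 2 seeds were shared, by miR-299a-3p with miR-299b-3p and by miR-376b-5p with miR-376c-5p. Both arms of 5 hairpins are shown next because the ratio between these arms differed most clearly between the groups.
miR-543-5p: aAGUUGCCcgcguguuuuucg
miR-543-3p: aAACAUUCgcggugcacuucu
miR-380-5p: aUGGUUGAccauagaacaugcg
miR-380-3p: uAUGUAGUaugguccacaucu
miR-369-5p: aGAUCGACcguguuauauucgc
miR-323-5p: aGGUGGUCcguggcgcguucgc
miR-323-3p: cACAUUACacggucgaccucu
miR-540-5p: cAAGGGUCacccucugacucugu
miR-540-3p: aGGUCAGAggucgauccugggc

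The most abundant members are shown because they differ at 1 of the 7 seed bases and at 7 of all 21 bases.
miR-411-5p: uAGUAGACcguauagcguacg
miR-379-5p: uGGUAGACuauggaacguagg

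Values are the authors' expression values, whole numbers that behave as normalized ones on a scale that is not stated. They summed to between 709674 and 736078 per library, sequencing depth is unknown, and precision is limited by the 3 rats a group. Of 25 listed markers of neurons, other cell types and other tissues, all had a value in at least 1 library and none differed past the threshold. The 4 neuronal markers summed to 82108 in Control 1, 112030 in Control 2 and 111618 in Control 3, and to between 92878 and 100441 in CMS. Their order differed by marker. The value of miR-128-3p was 18158, 54214 and 54272 in Control and 28999, 16153 and 19969 in CMS, while that of miR-9a-5p was 59815, 53474 and 52742 and then 58633, 76696 and 75032. The value of miR-124-3p was 2299, 2059 and 2498 in Control and 2348, 2289 and 2562 in CMS, and that of miR-129-5p was 1836, 2283 and 2106 and then 2898, 3017 and 2878. Control 1 was thus the lowest Control for miR-128-3p and miR-129-5p, the highest for miR-9a-5p and between the others for miR-124-3p. The 4 choroid plexus and ependymal markers summed to 2010 in Control 1, 1115 in Control 2 and 1106 in Control 3, and to between 982 and 1887 in CMS. Liver miR-122-5p was at 13 or below in every library. In bulk tissue, fewer cells of a type and less RNA per cell cannot be told apart.

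The members' summed value was 19759 in Control 1, 26204 in Control 2 and 26239 in Control 3, against 27000, 22009 and 24060 in CMS 1 to 3. This was 2.68% to 3.67% of each library's total, and the groups overlapped. Control 1 was the lowest of the Controls for 43 of 61 tested members (70.5%), against 38.1% of all 657 miRNAs tested. CMS 1 was the highest of its group for 40 members (65.6%, against 36.4% of all) and CMS 2 the lowest for 39 (63.9%, against 39.1%). Marker sums also differed between libraries. Those of oligodendrocytes, vessel and mural cells and red blood cells were highest in CMS 1, at 2599, 28976 and 438. The other 5 libraries reached at most 1812, 21686 and 340. Single markers did not all follow their sum. The red blood cell miR-486 and miR-144-3p and the oligodendrocyte miR-219a-5p were highest in Control 2. They were at 146, 8 and 8 there, against 132, 3 and 4 in CMS 1. The part of these markers and of the neuronal ones in the members' levels was not tested. Among the 49 members averaging 10 or more, the median coefficient of variation was 19.2% in Control and 17.4% in CMS, close to the 16.4% and 15.9% of all miRNAs at such levels.

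The sums differed by arm, which is given as a description with no test. The 28 members of the 5p arm summed to 8752, 10455 and 10852 in Control 1 to 3 and to 13766, 11161 and 11933 in CMS 1 to 3. The 33 members of the 3p arm summed to 10043, 14370 and 14185 in Control and to 11953, 9948 and 10931 in CMS. The 5p sums of the groups did not overlap, while the 3p sum of Control 1 lay among the CMS values. The 5p sum divided by the 3p sum was 0.871, 0.728 and 0.765 in Control and 1.15, 1.12 and 1.09 in CMS. Among members named by arm, the 3p arms thus held more than the 5p arms in every Control library and less in every CMS library. The 4 members with no arm in their name are in neither sum. Of these, miR-495 was at 974, 631 and 958 in CMS, so the order in CMS may depend on leaving them out. Abundant members weigh most in the sums. Group means went from 2923.3 in Control to 3926 in CMS for miR-379-5p, from 3054 to 3800 for miR-411-5p and from 1546.7 to 592.7 for miR-543-3p. For the other annotated miRNAs the same quotient was 2.53, 1.92 and 1.85 in Control and 2.22, 2.46 and 2.24 in CMS, and these groups overlapped.

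**Figure D1:**
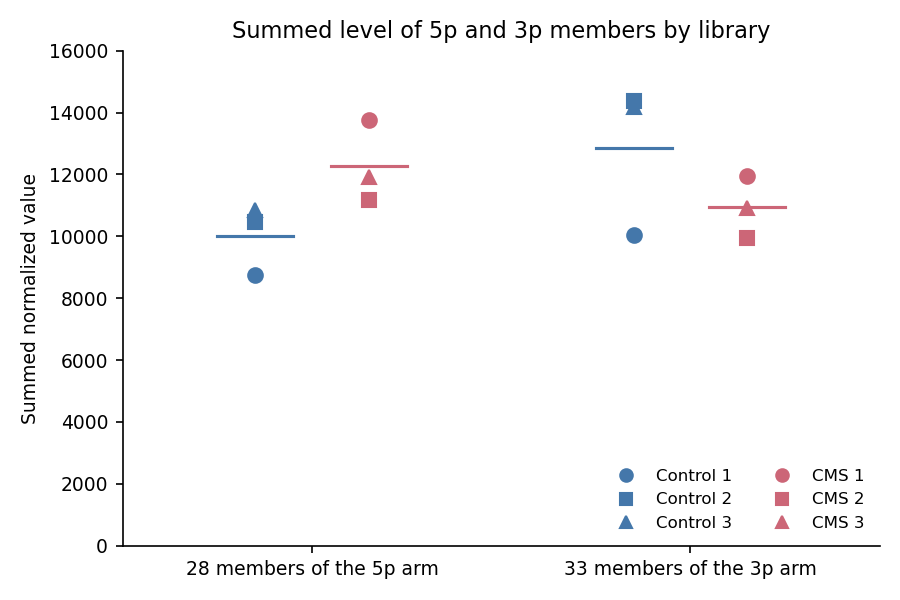
Summed normalized value (y axis, from 0) of the 28 members of the 5p arm and the 33 members of the 3p arm; each point is 1 library and lines are group means. The 5p sums run from 8752 to 10852 in Control and from 11161 to 13766 in CMS, while the 3p sum of Control 1 (10043) falls among the CMS libraries.

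The first comparison asked which members differ in level between stressed and handled Control rats. No member passed the threshold of a limma adjusted p of 0.05, over 657 miRNAs tested in all, of which 4.11% passed (3.35% higher and 0.761% lower in CMS). Of the 61 members tested, 14 (23.0%) had an unadjusted limma p under 0.05, near the 23.3% of all miRNAs tested, with 11 higher and 3 lower in CMS (17.7% and 5.63% over all). For 13 members every CMS value was above every Control value and for 5 below, where the shares over all miRNAs tested were 19.6% and 6.24%. The median log2 difference of the tested members was 0.08, the same as over all miRNAs tested, with a range from -1.25 to 1.39. Among the tested members, 3 (miR-410-5p, miR-412-3p and miR-487b-5p) had a value in fewer than 2 Control libraries and so entered through CMS. Of these, miR-412-3p gave the 1.39 and is among the 11 higher ones. For members averaging 10 or more, the range ended at 0.8. The 4 members too low to be tested were miR-376c-5p, both arms of miR-544 and miR-666-3p.

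This count moved with the libraries, as did the share over all miRNAs. Without Control 1, 20 of 60 members (33.3%) had an unadjusted limma p under 0.05, 8 higher and 12 lower in CMS, where 33.0% of all miRNAs did. The count was 9 of 61 (14.8%) without Control 2 and again without Control 3, beside 17.1% of all miRNAs each time, and 7 of 61 (11.5%) without CMS 3, beside 17.0%.

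By arm, 20 of the 26 tested 5p members were higher in CMS and 6 lower, with a median log2 difference of 0.28. Of the 31 tested 3p members, 16 were higher and 15 lower, with a median of 0.01. The 20 include miR-410-5p and miR-487b-5p and the 16 include miR-412-3p, which all entered through CMS. Among members averaging 10 or more, 14 of 18 5p and 13 of 27 3p members were higher. Of the other annotated miRNAs, 95 of 177 tested 5p arms were higher and 82 lower, with a median of 0.04. Their 188 tested 3p arms had 118 higher and 70 lower, with a median of 0.19. Whether members differ from these was not tested. Quantile normalization, which shifted the log2 differences of all miRNAs by a median of -0.12, gave 19 higher and 7 lower 5p members and 10 higher and 21 lower 3p members. Trimmed mean rescaling gave the same counts for both arms. Without Control 1 the medians were 0.19 for the 5p and -0.19 for the 3p members.

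Among 5p arms, miR-411-5p and miR-379-5p held the highest levels of all members, at ranks 39 and 40 of the whole table. The value of miR-411-5p was 2735, 3125 and 3302 in Control and 3981, 3657 and 3762 in CMS. The value of miR-379-5p was 2441, 3040 and 3289 in Control and 4418, 3566 and 3794 in CMS. Every CMS library was above every Control library for both, by log2 differences of 0.32 ± 0.10 (SE) and 0.43 ± 0.15, and neither passed (limma adjusted p = 0.143 and 0.163). The level of miR-541-5p was nearly constant in Control, at 837, 840 and 838, and was 1327, 804 and 951 in CMS, so the groups overlapped (limma adjusted p = 0.424).

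**Figure D2:**
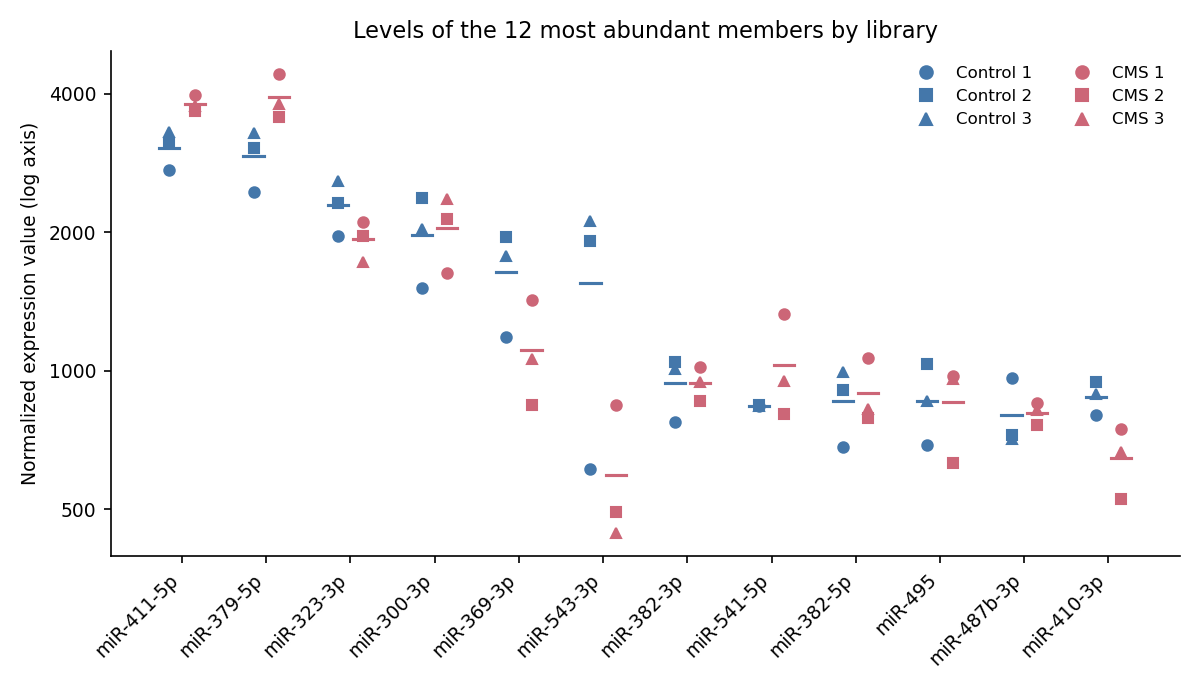
Normalized expression value (log axis) of the 12 members with the highest mean in each of the 6 libraries; points are libraries and lines are group means. Only miR-411-5p and miR-379-5p (higher in CMS) and miR-410-3p (lower) show no overlap between groups among these 12, and miR-543-3p in Control 1 (610) sits with the CMS libraries.

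The 3 smallest p-values belonged to members at low levels. The 5p arm of miR-323 was at 12, 15 and 11 in Control and at 24, 21 and 23 in CMS, a 1.79-fold difference of means (log2 0.80 ± 0.16, limma adjusted p = 0.0517). The 3p arm of miR-540 was at 36, 44 and 36 in Control and at 66, 58 and 62 in CMS, 1.6-fold (log2 0.67 ± 0.14, limma adjusted p = 0.0517). Groups were well apart for both arms, and a pseudocount of 0.1 in place of 1 brought both just past the threshold (limma adjusted p = 0.0473 for each). The 5p arm of miR-543 was at 2, 3 and 3 in Control and at 8, 5 and 7 in CMS (log2 1.06 ± 0.22, limma adjusted p = 0.0541).

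The next smallest p-values were those of miR-496-3p and miR-667-5p. The value of miR-496-3p was 132, 171 and 154 in Control and 251, 205 and 262 in CMS, 1.57-fold (log2 0.65 ± 0.16, limma adjusted p = 0.0809). The value of miR-667-5p was 9, 13 and 9 in Control and 17, 16 and 19 in CMS, 1.68-fold (log2 0.71 ± 0.19, limma adjusted p = 0.0923). Every CMS library exceeded every Control library for both. The 3p arm of miR-412 was listed at 0, 0 and 1 in Control and at 5, 1 and 2 in CMS, values at the bottom of the scale (limma adjusted p = 0.166).

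The value of miR-410-3p, processed from the last hairpin of the run, was 799, 945 and 889 in Control and 745, 527 and 666 in CMS, with no overlap (log2 -0.45 ± 0.16, limma adjusted p = 0.162). The value of miR-369-3p, described in human cells as acting on AU-rich elements of the tumour necrosis factor messenger RNA, was 1185, 1947 and 1775 in Control and 1421, 844 and 1058 in CMS (limma adjusted p = 0.245). The value of miR-323-3p was 1966, 2310 and 2581 in Control and 2102, 1958 and 1725 in CMS (limma adjusted p = 0.317). For miR-369-3p and miR-323-3p it was Control 1 that fell within the range of CMS.

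Among members averaging 10 or more, miR-376a-3p and miR-543-3p had the widest spread within Control (coefficients of variation 69.5% and 52.8%), and miR-665 had the widest within CMS (45.1%). The value of miR-376a-3p, of a group whose seeds are known sites of A-to-I RNA editing in brain, was 4 in Control 1, 29 in Control 2 and 27 in Control 3, and 8, 4 and 6 in CMS. The value of miR-543-3p was 610 in Control 1, 1917 in Control 2 and 2113 in Control 3, and 842, 492 and 444 in CMS. In both, Control 1 was as low as the CMS libraries and far below the other Controls, and the log2 difference of -1.25 for each did not pass (limma adjusted p = 0.33 and 0.225). Without Control 1 the log2 difference was -2.09 for miR-376a-3p (limma adjusted p = 0.0323) and -1.82 for miR-543-3p (limma adjusted p = 0.0502). The 3p arms of miR-376a and miR-376b match at 18 of 21 bases, so reads of these paralogues may be shared between rows and the value of miR-376a-3p is uncertain.

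The value of miR-493-3p was 22, 52 and 25 in Control and 26, 29 and 37 in CMS, and that of miR-665 was 8, 15 and 14 in Control and 4, 11 and 9 in CMS. Groups overlapped for both (limma adjusted p = 1 and 0.365).

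Other abundant members lay close together in the 2 groups. Group means of miR-382-3p were 942 ± 145.9 (SD, n = 3) in Control and 940 ± 77.5 in CMS, and those of miR-382-5p were 860 ± 160.5 and 893.3 ± 150.7. Those of miR-495, described as acting on brain-derived neurotrophic factor, were 860.7 ± 170.5 and 854.3 ± 193.6. Those of miR-300-3p were 1967.7 ± 432.1 and 2042 ± 374.3, and those of miR-487b-3p were 800 ± 143.1 and 810.7 ± 45.1. Differences of these 5 were within the spread between replicates (limma adjusted p from 0.895 to 1). The sign of each turned when some single libraries were left out, and for all but miR-495 also under at least 1 scaling.

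**Figure D3:**
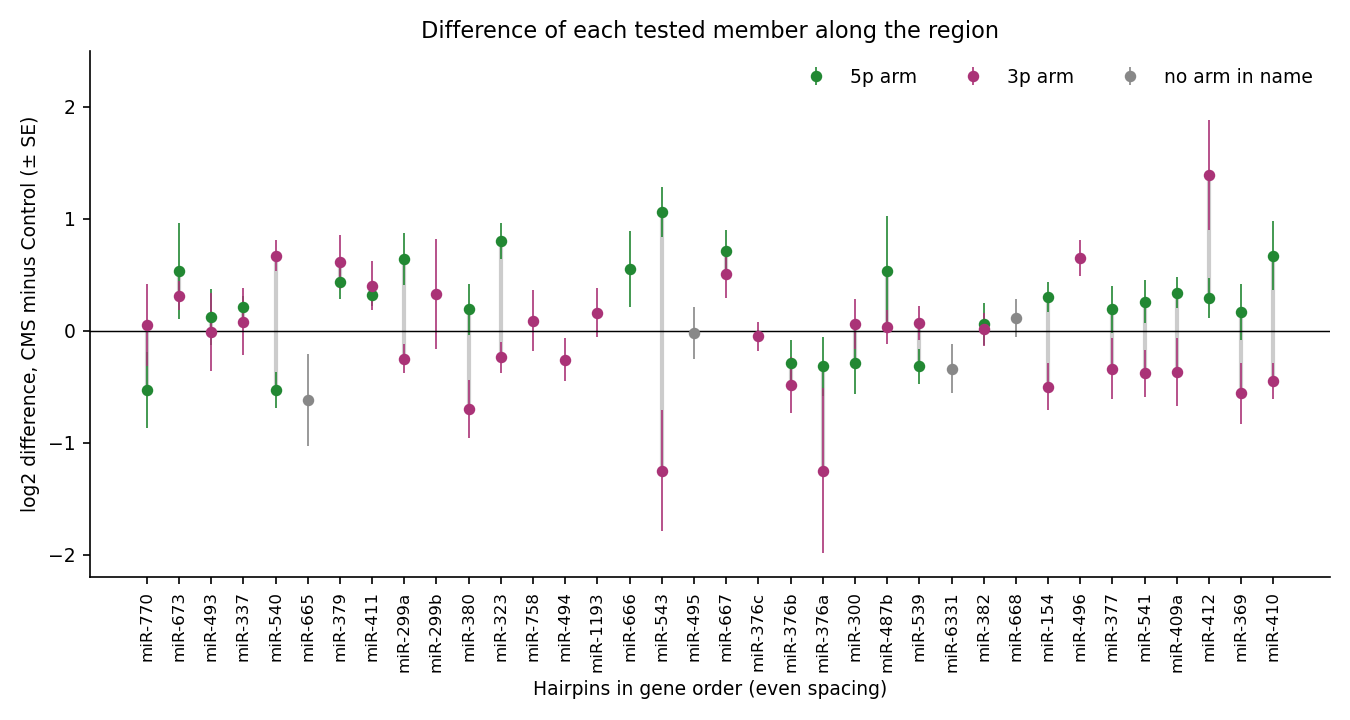
Log2 difference, CMS minus Control, of each of the 61 tested members (y axis, bars are ± SE), with hairpins in gene order at even spacing on the x axis. Green is the 5p arm, purple the 3p arm, grey a member with no arm in its name, and grey lines join the arms of a hairpin; values range from -1.25 to 1.39 and the arms of miR-543 stand farthest apart.

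The second comparison asked whether the balance between the arms of a hairpin differs with stress. It used the log2 ratio of the 5p to the 3p value, each plus 1, in 1 limma fit over all 144 annotated hairpins with both arms measured, of which 18.1% passed an adjusted p of 0.05. Both arms come from the same precursor in the same library, so a change of scale cancels out of this ratio, apart from the added 1 in low values. Of the 25 member hairpins in the fit, 9 (36.0%) passed. The ratio rose toward the 5p arm in CMS for 7, where 10.4% of all hairpins did so, and fell toward the 3p arm for 2, where 7.64% did. The groups were fully apart for 9 of the 25 member hairpins in the direction of the 5p arm and 4 in that of the 3p arm, against 17.4% and 19.4% of all hairpins. These 9 include miR-410, whose 5p arm was at 0 or 1 in every library and entered through CMS. The main arm, by group mean, was the same in both groups for all 25, being 3p for 15 and 5p for 10.

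The largest member change was that of miR-543. Its log2 ratio was -7.67, -8.91 and -9.05 in Control and -6.55, -6.36 and -5.8 in CMS, a change of 2.30 ± 0.40 (SE), or 4.94-fold (limma adjusted p = 0.00218). The minor 5p arm was 2.5-fold higher by means while the 3p arm was at 0.383 times its Control level. Control 1 lay between the other Controls and CMS. With a 5p value between 2 and 8, the ratio rests on few units of the rounded scale.

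The ratio of miR-380, whose arms are about equally abundant in Control, rose at higher values. It was 0.2, 0.24 and 0.27 in Control, nearly the same in all 3 libraries, and 1.09, 1.39 and 0.91 in CMS, a change of 0.90 ± 0.17 (limma adjusted p = 0.00439). Its 3p arm was at 91, 150 and 152 in Control and 81, 62 and 94 in CMS, its 5p arm at 105, 177 and 183 and at 174, 164 and 178. Control 1 was the lowest Control for both arms, and its ratio was level with the other Controls. Neither level passed (limma adjusted p = 0.187 for 3p and 0.649 for 5p), nor did either without Control 1 (0.0664 and 0.597). Ratios of miR-543 and miR-380 passed in every alternative in which they could be fitted, with adjusted p up to 0.0244 and 0.0393.

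In the miR-154 precursor family, a grouping from general knowledge of 12 member hairpins related to miR-154, 4 of the 10 hairpins with both arms passed, all toward 5p. For miR-369 the ratio was -2.04, -2.39 and -2.02 in Control and -1.37, -1.32 and -1.55 in CMS, a change of 0.73 ± 0.17 (limma adjusted p = 0.00907). Its 5p arm was at 288, 371 and 438 in Control and 549, 337 and 361 in CMS, and those values overlapped. For miR-323 the ratio was -7.24, -7.17 and -7.75 in Control and -6.39, -6.48 and -6.17 in CMS, a change of 1.04 ± 0.24 (limma adjusted p = 0.00907). By means, the 5p arm stood at 1.79 times and the 3p arm at 0.844 times its Control level.

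For miR-409a the ratio was 0.84, 0.02 and 0.16 in Control and 0.86, 1.2 and 1.11 in CMS, a change of 0.72 ± 0.21 (limma adjusted p = 0.038). Control 1 nearly reached CMS 1. The 5p arm was at 639, 640 and 695 in Control and 971, 717 and 835 in CMS, and the 3p arm at 356, 631 and 621 and at 535, 312 and 385. For miR-154 itself the ratio was 3.14, 3.17 and 2.76 in Control and 3.52, 4.12 and 3.84 in CMS, a change of 0.81 ± 0.24 (limma adjusted p = 0.038). Its 5p arm was at 166, 197 and 168 in Control and 206, 207 and 243 in CMS, and the 3p arm with the reference seed at 18, 21 and 24 and at 17, 11 and 16. Each arm alone had no overlap between groups, in opposite directions, and neither passed (limma adjusted p = 0.221 for each).

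Outside that family, miR-299a also moved toward 5p, with a change of 0.88 ± 0.26 (limma adjusted p = 0.038). Its ratio was -2.86, -3.48 and -3.43 in Control and -2.24, -2.5 and -2.38 in CMS, with no overlap. Its 5p arm was at 11, 7 and 8 in Control and 17, 11 and 14 in CMS, and its 3p arm at 86, 88 and 96 and at 84, 67 and 77. The 17 bases of miR-299b-3p are contained in miR-299a-3p, so the rows of these miRNAs, whose hairpins overlap on opposite strands, cannot be fully told apart. The row of miR-299b-3p held 0, 2 and 2 in Control and 2, 1 and 2 in CMS.

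The 2 hairpins whose ratio fell, toward 3p, were miR-540 and miR-770. Both belong to the 6 hairpins that precede miR-379 in gene order. The ratio of miR-540 was -2.21, -2.68 and -2.21 in Control and -3.74, -3.56 and -3.39 in CMS, a change of -1.20 ± 0.30 (limma adjusted p = 0.0174). Its 5p arm was low, at 7, 6 and 7 in Control and 4, 4 and 5 in CMS. The ratio of miR-770, within Meg3, was -0.14, -0.29 and -0.45 in Control and -0.86, -0.91 and -0.83 in CMS, a change of -0.58 ± 0.18 (limma adjusted p = 0.0451).

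The miR-770 arms moved together across libraries. The 5p arm was at 29, 67 and 45 in Control and 38, 24 and 31 in CMS, and the 3p arm at 32, 82 and 62 and at 70, 46 and 56. Groups overlapped for each arm, but not for the ratio. Of the 20 hairpins from miR-379 to miR-410 in the fit, 7 passed, all toward 5p. Of the 5 before miR-379, 2 passed, both toward 3p. By sign alone, 3 of these 5 went toward 5p, and 5 of the 20 went toward 3p. Whether these stretches differ was not tested.

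**Figure D4:**
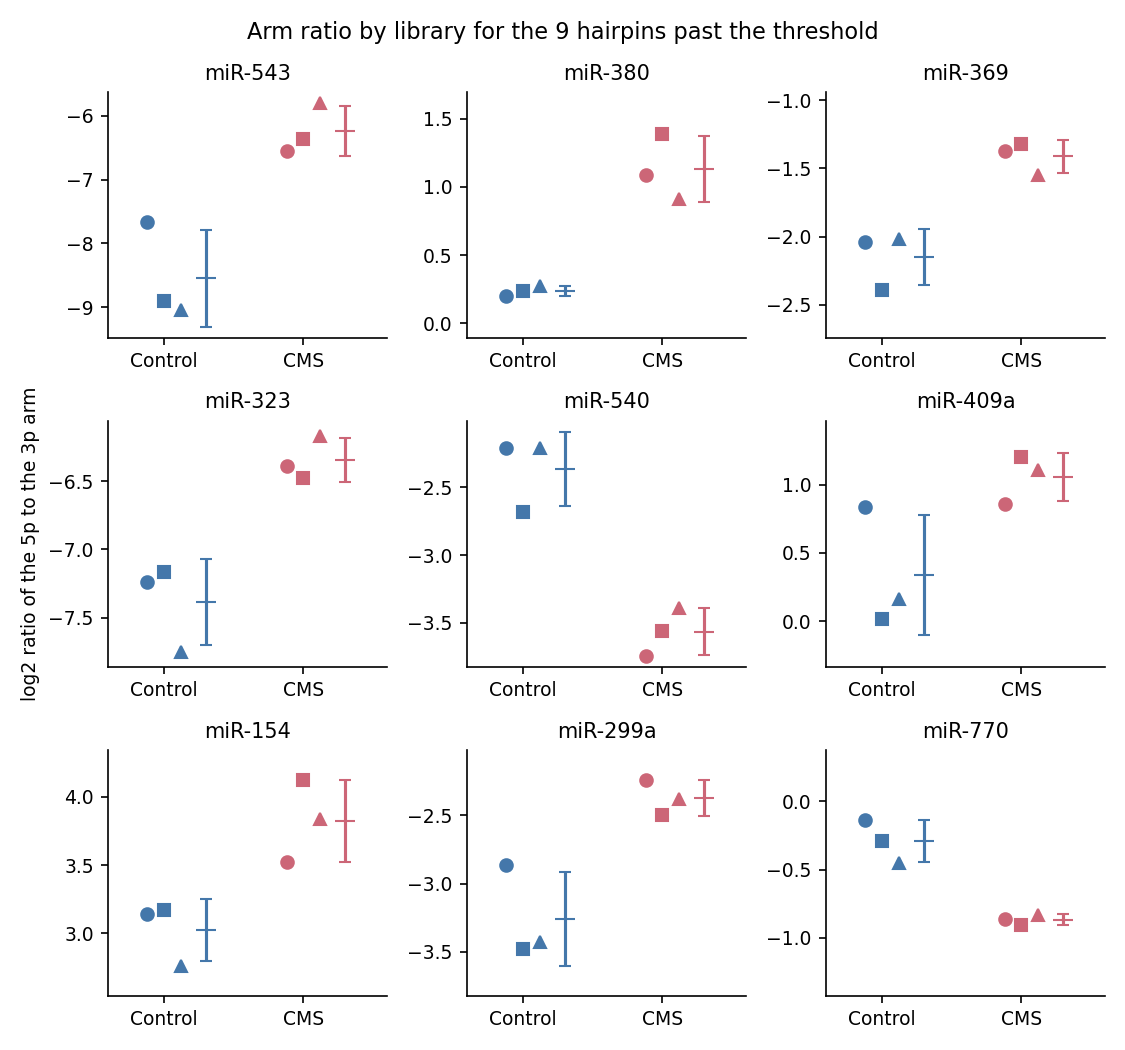
Log2 ratio of the 5p to the 3p value (y axis, each value plus 1) in the 6 libraries for the 9 member hairpins past the threshold; points are libraries, and bars give the group mean ± SD (n = 3), blue for Control and red for CMS. In each panel the CMS libraries lie wholly above the Controls, or wholly below them for miR-540 and miR-770, with the narrowest gap in miR-409a (0.84 in Control 1 and 0.86 in CMS 1).

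The count of 9 depended on the libraries. It was 4 of 25 without Control 2, where 7.09% of all hairpins passed, 3 of 25 without Control 3 (5.63%), 3 of 24 without CMS 2 (5.63%) and 3 of 25 without CMS 3 (6.34%). It was 6 of 24 without CMS 1 (9.29%). Without Control 1 it was 10 of 24, or 41.7%, beside 40.1% of all hairpins, so that in this fit the members' share was near the background. Direction was the same in every fit for each of the 9. Of the 14 alternatives, miR-323 passed in 12, miR-369 in 11, miR-154 in 9, miR-299a and miR-409a in 8 each and miR-770 in 6, with adjusted p up to 0.094, 0.0705, 0.197, 0.182, 0.182 and 0.146. The ratio of miR-540 passed in 10 of 13 (adjusted p up to 0.116). Calls of miR-299a, miR-409a and miR-770 were lost in each of the 5 fits without a library other than Control 1.

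The other 16 member hairpins did not pass. For miR-410 the ratio was -9.64, -8.89 and -9.8 in Control and -8.54, -8.04 and -8.38 in CMS, a difference of 1.12 ± 0.45 (limma adjusted p = 0.0904). For miR-539 it was -1.01, -0.93 and -1.12 in Control and -1.26, -1.46 and -1.53 in CMS, a difference of -0.40 ± 0.16 (limma adjusted p = 0.0904). The 5p arm of miR-410 was at 0, 1 and 0 in Control and at 1 in each CMS library, so its ratio in effect restates the 3p level and is not read as a change of arm. The groups were apart for miR-539 without passing. The difference was smallest for miR-382, at 0.05, whose arms were about equal in every library.

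**Figure D5:**
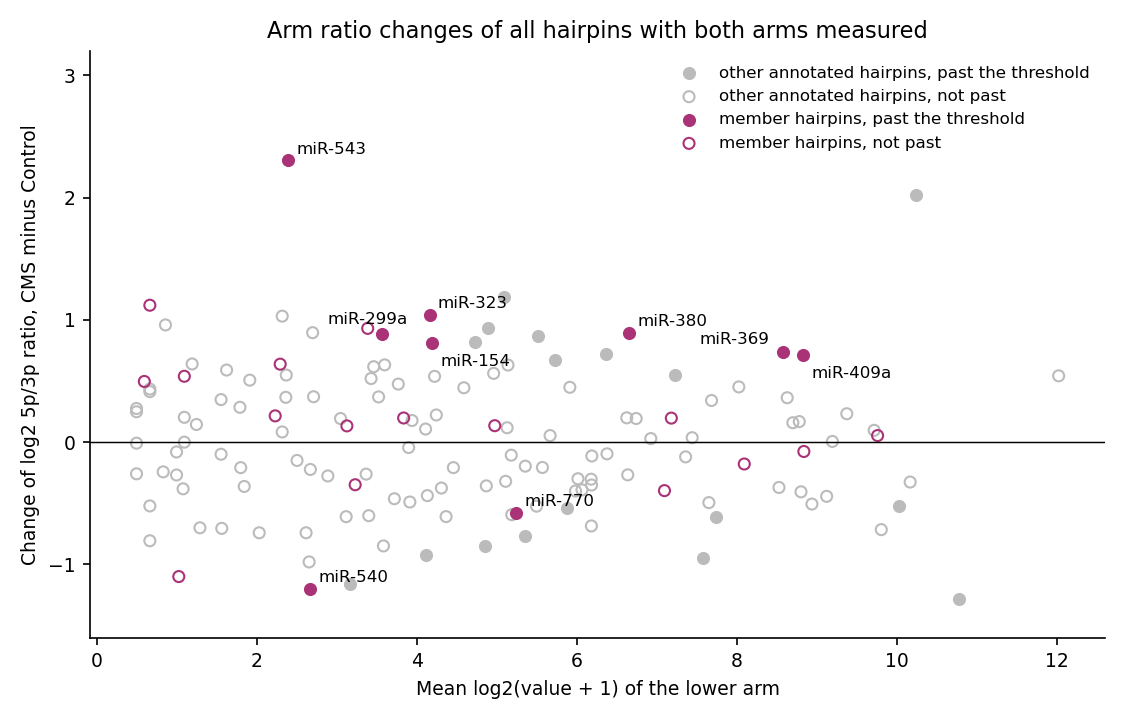
Change of the log2 5p/3p ratio, CMS minus Control (y axis), against the mean log2(value + 1) of the lower arm (x axis) for all 144 hairpins; purple marks members, grey the others, and filled points passed an adjusted p of 0.05. Of the members 7 filled points lie above 0 and 2 below, and the unlabelled grey point near 2 is miR-127.

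For comparison, of the 9 hairpins measured on a list of other miRNAs of the region (miR-127, miR-134, miR-136, miR-329, miR-370, miR-381, miR-433, miR-434 and miR-485), 1 ratio passed, that of miR-127, also toward 5p, with a change of 2.02 ± 0.19 (limma adjusted p = 4.58e-06). Of the 110 annotated hairpins on neither list, 16 (14.5%) passed, 7 toward 5p and 9 toward 3p. The difference between these shares and that of the members was not tested. Among the 22 listed miRNAs of the rest of the region, 1 level passed an adjusted p of 0.05, beside 4.11% over all miRNAs tested. It was that of miR-127-3p, lower in CMS (log2 -2.32 ± 0.16, limma adjusted p = 0.00285). By sign alone 16 of the 22 were lower and 6 higher in CMS (286 and 371 of all 657 miRNAs tested). The groups did not overlap for 3 lower and 2 higher ones, where the shares over all were 6.24% and 19.6%.

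The 4 members of the seed grouping did not pass. The log2 difference was -0.50 ± 0.21 for miR-154-3p and -0.56 ± 0.27 for miR-369-3p, but 0.01 ± 0.15 for miR-382-3p and 0.03 ± 0.15 for miR-487b-3p, whose seeds are at the same distance of 1 base as that of miR-369-3p. Under quantile normalization both of the last differences were -0.08, and under trimmed mean rescaling -0.08 and -0.06, so that all 4 were then negative. In the wider miR-154 precursor family the tested 5p arms had a median of 0.25, with 8 of 10 higher in CMS. These 8 include miR-410-5p and miR-487b-5p, which entered through CMS, and miR-377-5p, at 1 or 2 in every library. At a mean of 10 or more, 5 of 6 were higher, with a median of 0.24. The tested 3p arms had a median of -0.25, with 5 of 12 higher. With trimmed mean rescaling 1 of these 12 was higher, and without Control 1 it was 2. For the remaining hairpins the medians were 0.28 for 16 tested 5p arms and 0.08 for 19 tested 3p arms, the latter -0.19 without Control 1 and 0.27 without Control 2. Whether the family differs from the remaining hairpins was not tested.

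Some members share sequence outside the seed, shown here because the same letters stand in several 3p arms. The motif GGUCCAC, the run of 7 letters shared by the most members on the strand as printed and chosen after that search, stands in 5 of the 65 members, all 3p arms, and in 0.722% of the 693 mature rat sequences in the RefSeq table, which are the same 5. Capitals mark the motif.
miR-379-3p: cuauguaacauGGUCCACuaac
miR-411-3p: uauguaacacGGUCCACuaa
miR-380-3p: uauguaguauGGUCCACaucu
miR-758-3p: uuugugaccuGGUCCACuaacc
miR-412-3p: cuucaccuGGUCCACuagccgu

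These 5 were named after their values were seen. The level of miR-379-3p was 188, 227 and 251 in Control and 456, 261 and 321 in CMS (log2 0.61 ± 0.24, limma adjusted p = 0.196). That of miR-411-3p was 311, 427 and 477 in Control and 657, 442 and 497 in CMS (log2 0.40 ± 0.22, limma adjusted p = 0.31). Both followed the sign of their abundant 5p arms, and the ratios of miR-379 and miR-411 did not pass, with differences of -0.18 ± 0.17 and -0.08 ± 0.18. The log2 difference of miR-758-3p was 0.09 ± 0.27 and that of miR-380-3p was -0.70 ± 0.26. That of miR-412-3p, which entered through CMS at low values, was 1.39 ± 0.49. By sign, only miR-380-3p was lower in CMS and the others were higher, and none of the 5 levels passed the threshold.

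The member miR-1193-3p was at 12, 12 and 10 in Control and 17, 12 and 10 in CMS, and a predicted row of the table holds the same 6 values. The same reads may stand behind both rows, so its value is uncertain. It was named after its values were seen. Its log2 difference was 0.16 ± 0.22 (limma adjusted p = 0.698).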

How the data were processed

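miRNA libraries from medial prefrontal cortex of 3 Control and 3 CMS rats were analysed from 1 deposited table. The deposited values are used as a score. No source used here states their normalization, and that they are normalized and rounded to whole numbers is read from the values: library sums differed by 3.72%. At low levels (group mean from 1 to 8) the variance was 0.471 times the mean in Control and 0.53 times in CMS, below what counted reads allow, so no count model was used. The submitters' processing notes name Novoalign 2.07.11. The sources used here do not give the genome build or miRNA annotation. Blank cells were taken as 0.

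Levels were compared with limma-trend (limma 3.58.1, R 4.3.3) on log2(value + 1), which understates changes of low miRNAs, where 3 or more libraries held 1 or more, with Benjamini-Hochberg adjustment over all of them. Arm ratios were fitted with limma over all hairpins, the prior variance trended on the lower arm. Tests are two-sided. An exact permutation of 3 against 3 cannot give p below 0.1. Both fits were tested on simulated data with noise drawn independently for each miRNA and library. Shifts shared by many miRNAs of a library were not simulated, so that test does not cover them. Members and lists were chosen with earlier results of these data known. Named members are the 12 with the highest mean, the 12 with the smallest p, the 3 most variable per group, both arms of hairpins past the ratio threshold and the bearer of the miR-154 seed. Gene order and sequences come from RefSeq (GRCr8). Alternatives were scaling, pseudocount, filter, trend, annotated miRNAs alone, a replicate block and leaving out each library.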

Additional observations from a re-analysis of the deposited data

How the results depend on the processing

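With 3 rats a group, precision is limited, values are rounded to whole numbers, and depth is unknown. The number of members past the threshold was 0 and became 2 with a pseudocount of 0.1 (miR-323-5p and miR-540-3p), 1 without a mean-variance trend (miR-323-5p) and 0 to 1 over the libraries left out (miR-376a-3p without Control 1, miR-410-5p without Control 2). In the latter fit miR-410-5p was at 0 and 0 in Control and at 1 in each CMS library. That call rests on 1 unit of the rounded scale and is not read as a difference. Members at an unadjusted limma p under 0.05 were 7 to 20 over the libraries left out. This was 11.5% to 33.3% of those tested, beside 17.0% to 33.0% of all miRNAs tested. All miRNAs past the threshold were 27, of which 11 higher and 3 lower ones were annotated and the others predicted. They became 11 with annotated miRNAs only, a fit without the predicted rows, and 2 to 55 over the libraries left out. Member hairpins with a changed arm ratio were 9 of 25 (36.0%) and became 4 (16.0%) without a trend. Over the libraries left out they were 3 to 10. All such hairpins were 26 of 144 (18.1%) and became 8 (5.56%) without a trend. Over the libraries left out all such hairpins were 8 to 57. Without a trend the ratios of miR-154, miR-299a, miR-369, miR-409a and miR-770 were lost. That of miR-770 was also lost with a pseudocount of 10 and with quantile normalization (limma adjusted p = 0.0523 and 0.0651). A minimum mean of 10 in both arms left out miR-540 and miR-543, and the other 7 ratios passed. The cause of these losses was not tested.

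Of the named members, 9 log2 differences changed sign, and none of these passed the threshold in any setting. With trimmed mean rescaling they were -0.03 for miR-300-3p, -0.08 for miR-382-3p, -0.03 for miR-382-5p, -0.06 for miR-487b-3p and -0.04 for miR-770-3p, and with quantile normalization -0.08, -0.07, -0.08 and -0.09 for the last 4. Over the libraries left out they ran from -0.12 to 0.21 for miR-300-3p, -0.05 to 0.31 for miR-369-5p, -0.07 to 0.33 for miR-380-5p, -0.13 to 0.09 for miR-382-3p, -0.1 to 0.17 for miR-382-5p, -0.05 to 0.17 for miR-487b-3p, -0.24 to 0.36 for miR-493-3p, -0.17 to 0.19 for miR-495 and -0.33 to 0.33 for miR-770-3p.

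Replicates carry numbers 1 to 3 in both groups. Deviations of same-numbered libraries correlated at -0.14, -0.06 and 0, and those of differently numbered ones at between -0.16 and 0.15. This gives no sign that the numbers pair the libraries, but with 3 libraries a group it cannot exclude a shared batch. With the replicate block, members past the threshold were 0 of 61 and all miRNAs past it were 1 of 657. Members at an unadjusted limma p under 0.05 were 9 of 61 (14.8%), beside 21.6% of all miRNAs tested. Member hairpins with a changed arm ratio were 9 of 25 (36.0%), and all such hairpins were 41 of 144 (28.5%).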
